A study of Rattus norvegicus with 4 samples.

Results

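The 29 genes described here encode enzymes of cholesterol and fatty acid synthesis and the proteins that control them. They were taken by gene symbol from a given list, and all 29 were found, each in 1 row, among the 18755 genes listed for every library. All 29 had an FPKM (counts scaled to gene model length and library total) of at least 1 in at least 1 library, as did 12394 genes of the whole table. They comprise 7 enzymes of the mevalonate pathway, 3 that make squalene and lanosterol and 8 that turn lanosterol into cholesterol. The others are 5 sterol regulatory element binding proteins (SREBPs) or their regulators, 1 sterol carrier and 5 enzymes of fatty acid synthesis.

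RNA came from primary cells of the cerebral cortex of SD rats at embryonic day 16, plated at 100000 cells per well and kept for 24 h in Neurobasal medium with 2% B27 and 1% PS. The 4 hydrogels are SFMA itself and 3 others labelled N-SFMA, L-SFMA and, for both letters, NL-SFMA. Each had 5 parallel wells and gave 1 poly(A) RNA library. The study set out to learn how adhesion cues between cells, placed in a hydrogel, promote neural growth. The labels explain neither the letters N and L nor how the wells were combined into a library. The medium, the cell source and the culture time were the same for all 4. The cells are a mixed primary culture, and the cortical neuron factors Neurod6 (197, 227, 216 and 238 FPKM) and Tbr1 (69.8, 111, 110 and 118 FPKM) were present in every library. Sets of 4 values are in the order SFMA, N-SFMA, L-SFMA, then NL-SFMA, and sets of 3 leave out SFMA. No hydrogel has a replicate library, so no p-value is given and a difference cannot be told apart from variation between cultures.

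Cholesterol is built from acetyl-CoA through mevalonate, farnesyl diphosphate, squalene and lanosterol, and fatty acids are built from the same acetyl-CoA through malonyl-CoA. Most of these genes are targets of SREBPs, membrane-bound transcription factors that Scap escorts out of the endoplasmic reticulum when sterols are low and that Insig proteins hold back when sterols are high. SREBP2 is best known for sterol genes and SREBP1 for fatty acid genes, and both act at promoters together with NF-Y, which binds the CCAAT box. The developing brain makes its own cholesterol, since lipoproteins of the blood do not cross the blood-brain barrier, and growing axons need membrane lipid.

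RefSeq promoter windows (rat build GRCr8, from 250 bases before to 50 after the start) were matched by symbol for 22 of the 29 genes. No window was available for Pmvk, Fdft1, Sqle, Stard4, Acaca, Fasn and Elovl6, so their promoters were not searched. The box CCAAT, searched on both strands, was in at least 1 window of 18 of the 22 genes (81.8%) and of 39.5% of 9230 tested genes with a window in the same table. The SREBP core motif TCACNCCAC was in 0 of the 22 and in 1.17% of the tested genes, and the E-box CACGTG was in 3 of the 22 (Insig1, Sc5d and Scap) and in 10% of the tested genes. The windows printed here are those of the desaturase gene Scd2, which was higher on the 3 modified hydrogels, and the mevalonate pathway genes Mvk and Fdps, which were lower on NL-SFMA. They lie at chr1:253118127-253118426 (plus strand), chr12:47819454-47819753 (minus strand) and chr2:176804767-176805066 (minus strand), and capitals mark CCAAT or its reverse complement. A match is a run of letters, not a known binding site. Nor does the lack of a match to 1 fixed motif in so short a window show that a site is absent.
Scd2: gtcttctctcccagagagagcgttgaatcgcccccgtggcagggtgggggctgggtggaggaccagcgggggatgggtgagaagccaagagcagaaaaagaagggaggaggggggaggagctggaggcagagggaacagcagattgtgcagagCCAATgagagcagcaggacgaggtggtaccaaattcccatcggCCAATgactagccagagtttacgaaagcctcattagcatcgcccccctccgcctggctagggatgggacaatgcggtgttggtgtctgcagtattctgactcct
Mvk: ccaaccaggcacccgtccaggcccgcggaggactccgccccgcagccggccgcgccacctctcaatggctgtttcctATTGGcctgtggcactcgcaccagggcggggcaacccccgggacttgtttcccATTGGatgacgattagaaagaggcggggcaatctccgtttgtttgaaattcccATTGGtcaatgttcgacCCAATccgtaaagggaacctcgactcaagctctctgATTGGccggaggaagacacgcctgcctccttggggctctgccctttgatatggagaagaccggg
Fdps: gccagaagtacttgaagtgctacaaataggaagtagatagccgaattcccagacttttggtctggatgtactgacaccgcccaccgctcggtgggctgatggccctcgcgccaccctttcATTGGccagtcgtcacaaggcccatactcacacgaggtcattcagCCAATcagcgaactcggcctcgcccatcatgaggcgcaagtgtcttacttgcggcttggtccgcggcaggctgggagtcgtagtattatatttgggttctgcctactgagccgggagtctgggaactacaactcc
The window of Mvk holds 5 such boxes, and those of Scd2 and Fdps hold 2 each, so the box was present in genes that differed in opposite directions.

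On SFMA, the levels per gene length ran from 4.25 FPKM for Srebf1 to 186 FPKM for Hmgcs1. Hmgcs1 ranked first and Scd2 (157 FPKM) ranked second on SFMA, and these ranks were exchanged on the modified hydrogels, where Scd2 was at 271, 283 and 282 FPKM. Counts behind the values ran from 87 reads for Ebp on NL-SFMA to 22755 reads for Scd2 on L-SFMA. Summed over all 29 genes, the level was 6779, 8552, 7902 and 8065 CPM (counts scaled to the library total only). Of this sum, the 5 fatty acid genes held 1807, 3167, 3123 and 3303 CPM, and the 18 sterol enzymes held 4235, 4598, 3902 and 3984. The fatty acid sum was therefore 1.75-fold (95% counting interval 1.73 to 1.78), 1.73-fold (1.70 to 1.75) and 1.83-fold (1.80 to 1.85) that of SFMA, while the sterol enzyme sum was 1.09-fold, 0.921-fold and 0.941-fold. Such intervals cover counting error only, because each hydrogel has 1 library. They may be too narrow even for that, since reads copied by PCR and carrying no molecular identifier do not each stand for a molecule.

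**Figure D1:**
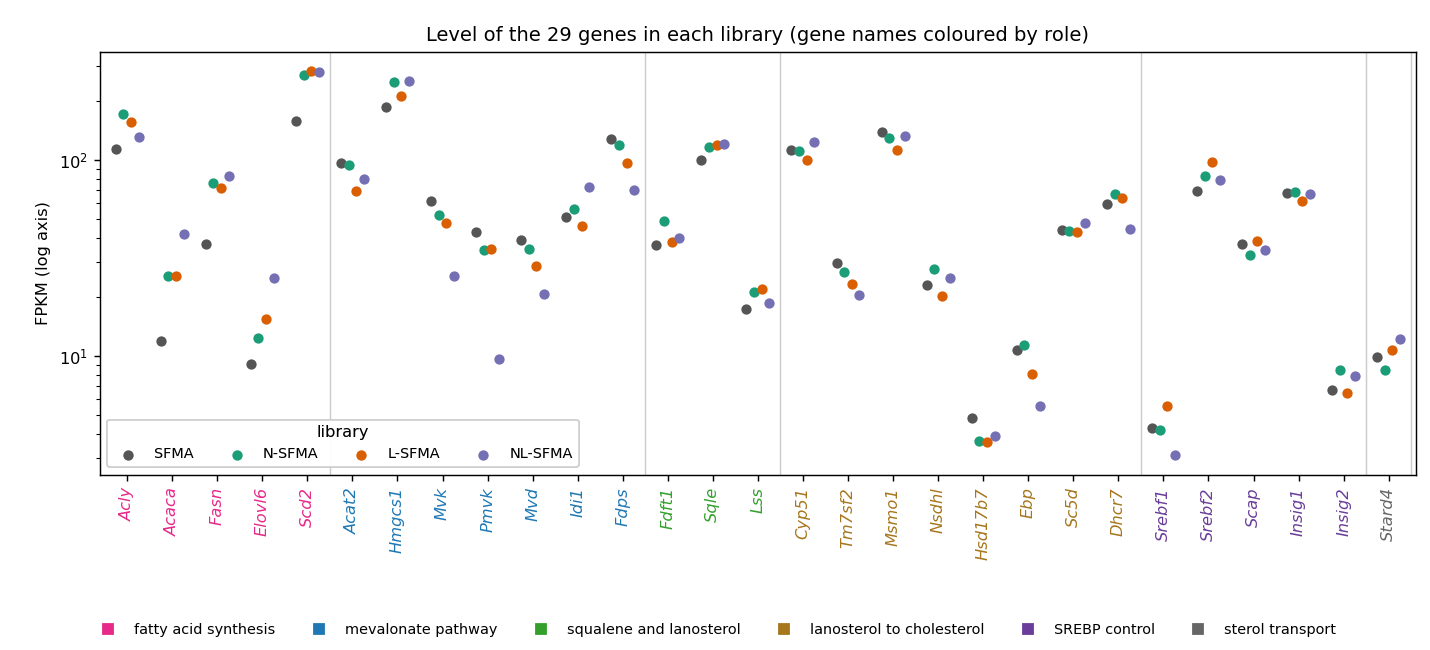
FPKM on a log axis for the 29 genes in the 4 libraries, 1 point per library, with genes grouped and coloured by role. Acaca, Fasn, Elovl6, Acly and Scd2 are lowest in SFMA, whereas Pmvk and Mvk are lowest in NL-SFMA.

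The library totals were 17553098, 15429180, 16340264 and 14172205 counted reads. Longer genes tended to be higher on the modified hydrogels, as Pearson's r between log2 gene model length and the log2 difference from SFMA was 0.46, 0.526 and 0.501 across the tested genes, which are not independent replicates. Mitochondrially encoded genes held 5.89% of NL-SFMA reads and 2.23% to 2.68% in the other libraries. Marker lists of cell types also differed. The 20 neuron markers summed to 7135, 10170, 9244 and 9956 CPM, and the 20 radial glia markers to 3573, 1805, 1981 and 2143. The 13 astrocyte markers found summed to 557, 340, 443 and 239, the 14 of the oligodendrocyte lineage to 118, 105, 103 and 71.4, and the 12 of microglia to 89.8, 39.2, 59.1 and 30.4. The 11 endothelial and pericyte markers summed to 35.2, 24.5, 36.4 and 26.6, the 10 of fibroblasts to 37.8, 37.6, 47.5 and 54.1, and the 10 erythroid markers to 1538, 466, 261 and 200 CPM. The 20 cell cycle genes summed to 2047, 1451, 1431 and 1561 CPM. No marker was at 0 in all 4 libraries, while the microglia genes C1qa, C1qc and Trem2 were at 0 on NL-SFMA and the endothelial gene Cdh5 was at 0 on N-SFMA. Also at 0 were 1, 1, 2 and 3 fibroblast markers, 1, 0, 1 and 1 radial glia markers and 0, 0, 2 and 2 erythroid markers. On N-SFMA, 1 microglia marker was at 0. Past 1.5-fold on NL-SFMA were 8 higher and 1 lower of 20 neuron markers, and 2 higher and 11 lower of 19 tested radial glia markers, where 21.6% of all tested genes were higher and 29.3% lower. The part of cell composition, gene length and mitochondrial reads in the results below was not tested, and in such bulk samples fewer cells of a type and less RNA per cell cannot be told apart.

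**Figure D2:**
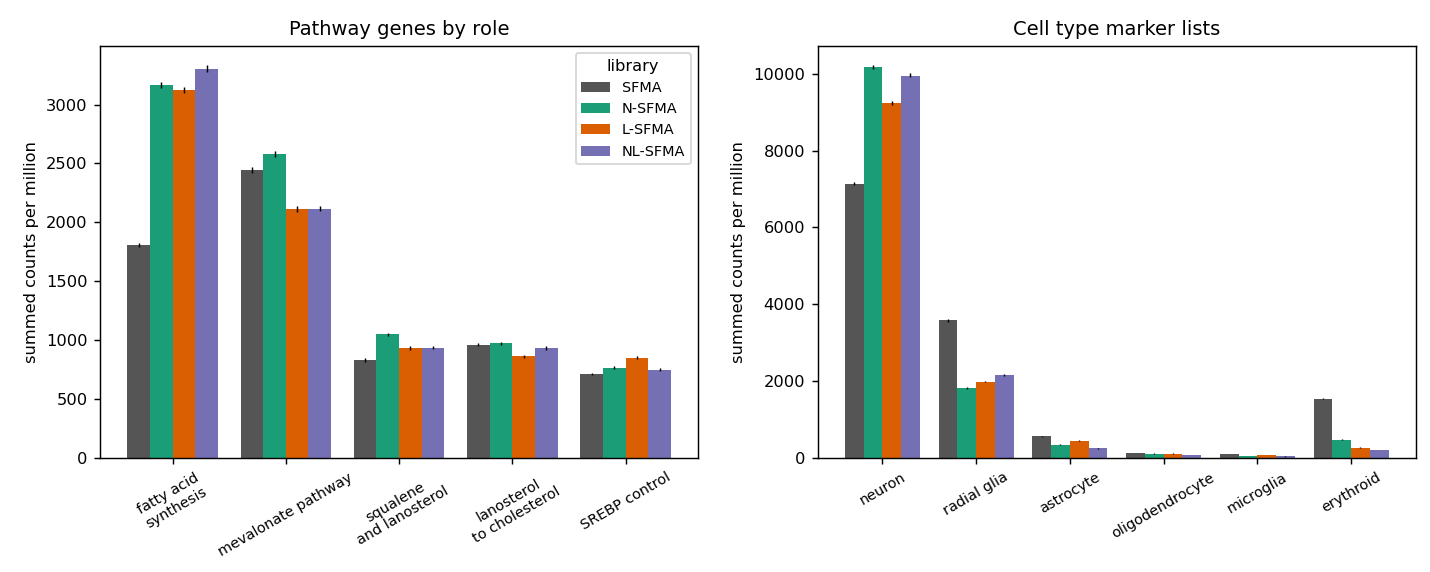
Summed CPM (linear axis from 0) of the pathway genes by role, left, and of 6 cell type marker lists, right, in the 4 libraries. Error bars are exact Poisson 95% intervals that cover counting error only; the fatty acid sum is 1807 in SFMA and at least 3123 in the others, and the radial glia sum is 3573 in SFMA and at most 2143 in the others.

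Each hydrogel was compared with SFMA to see which of these genes accompany the N modification, the L modification or both. Differences are log2 ratios of FPKM + 1, which understate the change of low genes, and a gene is counted as higher or lower when it is past 1.5-fold on this scale. On N-SFMA, 4 of the 29 genes were higher (Fasn, Acaca, Acly and Scd2) and 0 were lower, where 7.24% of all tested genes were higher and 10.7% lower. On L-SFMA, 4 were higher (Fasn, Acaca, Elovl6 and Scd2) and 0 were lower, where 14.8% of all tested genes were higher and 11.1% lower. On NL-SFMA, 4 were higher (Fasn, Acaca, Elovl6 and Scd2) and 5 were lower (Mvk, Pmvk, Mvd, Fdps and Ebp), where 21.6% of all tested genes were higher and 29.3% lower. The median difference of the 29 genes was 0.07, -0.03 and 0.11, and that of all tested genes was -0.02, 0.05 and -0.10. The share of the 29 genes that was higher exceeded that of all tested genes on N-SFMA, but was smaller on L-SFMA and NL-SFMA. On NL-SFMA, 5 of the 18 sterol enzymes were lower, a share close to the 29.3% of all tested genes. On this scale the higher genes were among the 5 fatty acid genes and the lower genes among the 18 sterol enzymes. That split did not hold under every alternative. Idi1 was also higher on NL-SFMA with median-of-ratios scaling. Idi1, Msmo1, Sc5d and Insig2 were higher on NL-SFMA, and Insig2 on N-SFMA, with the length trend removed.

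**Figure D3:**
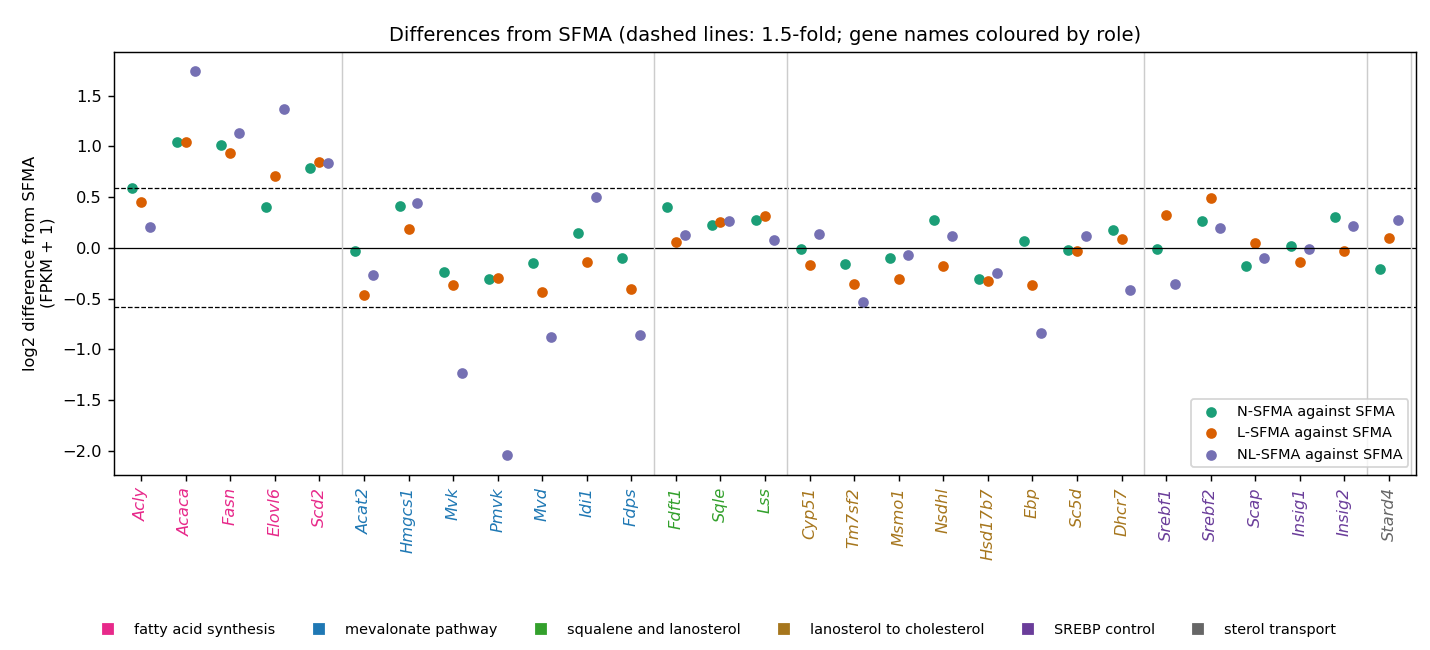
Log2 difference from SFMA on the FPKM + 1 scale for the 29 genes, 1 point for each modified hydrogel, with dashed lines at 1.5-fold and genes grouped and coloured by role. The points of Acaca, Fasn and Scd2 lie above the upper line on all 3 hydrogels, and those of Mvk, Pmvk, Mvd, Fdps and Ebp lie below the lower line on NL-SFMA.

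Of the 5 fatty acid genes, Fasn, Acaca and Scd2 were higher past 1.5-fold on all 3 modified hydrogels, Elovl6 on L-SFMA and NL-SFMA, and Acly on N-SFMA. All 5 were lowest on SFMA, as were 10 of the 29 genes and 34.8% of all tested genes, and their median difference was 0.78, 0.85 and 1.13. The 3 comparisons share the SFMA library, and 5.82% of all tested genes were higher past 1.5-fold in all 3. Acly encodes ATP citrate lyase, which makes cytosolic acetyl-CoA, and was at 113, 171, 156 and 131 FPKM. It was highest on N-SFMA at 1.51-fold (1.47 to 1.55) and was nearest to SFMA on NL-SFMA at 1.16-fold (1.12 to 1.19). Acaca encodes acetyl-CoA carboxylase, which makes the malonyl-CoA that commits carbon to fatty acids, and was at 11.9, 25.5, 25.5 and 42.0 FPKM. Its single-modification levels lay side by side at 2.15-fold (2.04 to 2.27) on both N-SFMA and L-SFMA, and NL-SFMA stood above them at 3.54-fold (3.37 to 3.72). Fasn, the fatty acid synthase that builds palmitate, was at 37.2, 76.0, 72.0 and 82.8 FPKM. The 3 modified hydrogels lay close together, at 2.04-fold (1.98 to 2.11), 1.93-fold (1.88 to 1.99) and 2.22-fold (2.16 to 2.29).

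Elovl6, which lengthens palmitate to stearate, was at 9.05, 12.3, 15.4 and 24.9 FPKM, from 388 to 861 reads. Its 4 levels were spread widely, and the folds of 1.36 (1.18 to 1.55), 1.71 (1.50 to 1.94) and 2.75 (2.44 to 3.11) left NL-SFMA well above the others. Scd2, the main stearoyl-CoA desaturase gene of the rodent brain, was at 157, 271, 283 and 282 FPKM. It differed little among the modified hydrogels, at 1.72-fold (1.69 to 1.76), 1.80-fold (1.76 to 1.84) and 1.80-fold (1.76 to 1.84). Its paralog Scd was much lower, at 3.45, 8.64, 6.21 and 9.93 FPKM, and was likewise lowest on SFMA; reads shared between these similar genes could not be told apart here, so the values of Scd are uncertain. The ratio of Fasn to Acaca FPKM was 3.14, 2.98, 2.82 and 1.97.

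Gene length accompanied part of these differences. The models of Fasn (10138 bases) and Acaca (9930 bases) are long, those of Scd2 (4925) and Acly (4565) are intermediate, and that of Elovl6 (2443) is short. At the length of Fasn the trend of all tested genes stood at 0.42, 0.69 and 0.92 on the log2 scale. With the trend removed, the difference of Fasn was 0.59, 0.24 and 0.21, that of Acaca 0.63, 0.37 and 0.83, and that of Scd2 0.60, 0.50 and 0.47. Elovl6, whose length goes with lower values in the table, moved the other way, to 0.51, 0.79 and 1.71, and Acly went to 0.45, 0.19 and -0.03. All 5 genes were then above 0 on N-SFMA and L-SFMA and 4 of 5 on NL-SFMA. Those past 1.5-fold numbered 3 (Fasn, Acaca and Scd2), 1 (Elovl6) and 2 (Acaca and Elovl6). Of all 12394 tested genes, 708, 995 and 2420 were then higher past 1.5-fold. Without trend removal, all 5 were above 0 in each comparison with SFMA under TMM scaling, median-of-ratios scaling and totals without mitochondrially encoded genes.

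**Figure D4:**
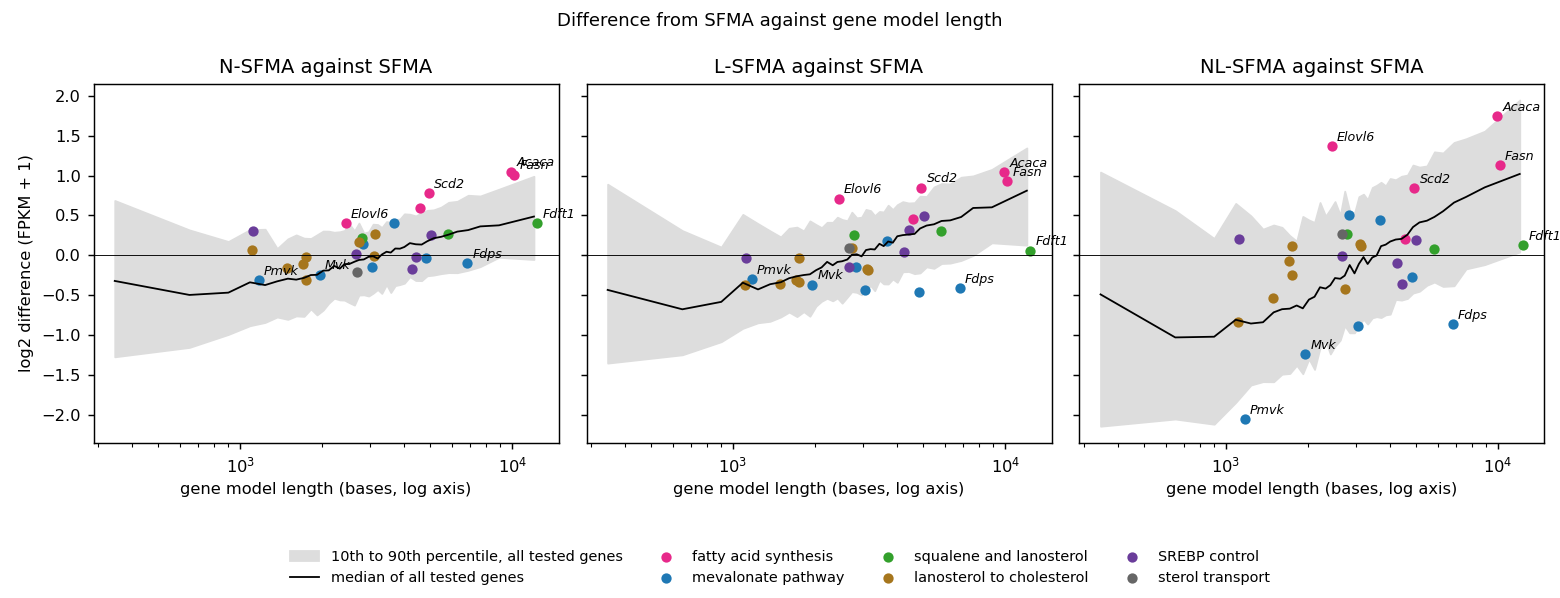
Log2 difference from SFMA (FPKM + 1) against gene model length in bases (log axis), with 1 panel per modified hydrogel. The line is the median and the grey band the 10th to 90th percentile of all tested genes by length; Elovl6 lies above the band on all 3 hydrogels, Pmvk and Fdps lie below the band on NL-SFMA, and Acaca lies above the band and Fasn inside it there.

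The mevalonate pathway was split by step on NL-SFMA, with Hmgcs1 and Idi1 above SFMA and the other 5 genes below it. Of the 7 genes, 0 were higher and 4 were lower than SFMA past 1.5-fold on NL-SFMA, where 29.3% of all tested genes were lower. On N-SFMA and L-SFMA 0 were past it, or 2 lower on L-SFMA with the length trend removed. Of all 12394 tested genes, 925 were then lower on L-SFMA. The median difference of the 7 genes, without trend removal, was -0.10, -0.37 and -0.86. Acat2 encodes the thiolase that joins the first acetyl-CoA units and was at 95.6, 93.7, 69.1 and 79.2 FPKM, lowest on L-SFMA. Hmgcs1, the HMG-CoA synthase, was at 186, 248, 211 and 254 FPKM, lowest on SFMA, with folds of 1.33 (1.30 to 1.37), 1.13 (1.11 to 1.16) and 1.36 (1.33 to 1.40).

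Both kinases and the decarboxylase that follow were highest on SFMA and lowest on NL-SFMA. Mvk, mevalonate kinase, was at 61.6, 52.1, 47.5 and 25.6 FPKM, and was 2.41-fold lower (2.21 to 2.63) on NL-SFMA than on SFMA. Pmvk, phosphomevalonate kinase, was at 42.9, 34.5, 34.8 and 9.65 FPKM, from 882, 622, 666 and 160 reads. It was 1.25-fold lower (1.12 to 1.38) on N-SFMA, 1.23-fold lower (1.11 to 1.37) on L-SFMA and 4.45-fold lower (3.76 to 5.30) on NL-SFMA, the largest difference from SFMA among the 29 genes before the length trend was removed. With the trend removed, Pmvk was at 0.05, 0.10 and -1.21, so its direction turned on N-SFMA and L-SFMA, and Elovl6 (1.71) and Fdps (-1.51) on NL-SFMA were farther from 0. Mvd, mevalonate diphosphate decarboxylase, was at 38.8, 34.9, 28.5 and 20.7 FPKM and 1.88-fold lower (1.74 to 2.04) on NL-SFMA.

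The isomerase gene Idi1, which interconverts the resulting isoprene units, went the other way and was at 50.7, 56.1, 45.9 and 72.2 FPKM. It was lowest on L-SFMA and highest on NL-SFMA, where its fold against SFMA was 1.42 (1.35 to 1.50). Fdps, farnesyl diphosphate synthase, was at 127, 119, 95.8 and 69.7 FPKM and 1.83-fold lower (1.78 to 1.88) on NL-SFMA. With the length trend removed, the NL-SFMA differences were -0.62 for Mvk, -0.75 for Mvd and -1.51 for Fdps, which with Pmvk were still past 1.5-fold lower. Fdps has a model of 6803 bases, for which the trend alone stood at 0.65. Acat2 (-0.61) was then also past 1.5-fold lower, and Idi1 (0.65) was past 1.5-fold higher. On L-SFMA, trend removal put Fdps (-0.88), Acat2 (-0.79) and Fdft1 (-0.75) past 1.5-fold lower. A gene model can be longer than the transcripts present, whose length was not measured. The trend at the model length may therefore be too large for Fdps, Acat2 and Fdft1, and their values after its removal too low.

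The 3 genes of squalene and lanosterol synthesis lay above SFMA on every modified hydrogel, although 0 of them were past 1.5-fold. Of all 12394 tested genes, 5924, 6670 and 5633 were above SFMA. Fdft1, squalene synthase, was at 36.5, 48.5, 38.2 and 39.9 FPKM and stood out on N-SFMA, at 1.33-fold (1.29 to 1.37). On L-SFMA its difference was 0.06, and -0.005 under median-of-ratios scaling. Sqle, the squalene epoxidase, was at 99.2, 116, 119 and 120 FPKM, with folds of 1.17 (1.12 to 1.22), 1.20 (1.15 to 1.25) and 1.21 (1.16 to 1.26). Lss, which closes the sterol rings to lanosterol, was at 17.4, 21.2, 21.8 and 18.5 FPKM, and its interval on NL-SFMA (0.990 to 1.14) included a ratio of 1. With the length trend removed, Fdft1 was at -0.09, -0.75 and -0.89 and Lss at 0.01, -0.12 and -0.40, which left Sqle alone above 0 on L-SFMA and NL-SFMA. The model of Fdft1 has 12374 bases, the longest among the 29, and may likewise be longer than the transcripts present.

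Among the 8 enzymes from lanosterol to cholesterol, 1 differed from SFMA past 1.5-fold before the length trend was removed. That gene was Ebp, a sterol isomerase, at 10.7, 11.3, 8.05 and 5.53 FPKM from 208, 193, 146 and 87 reads, and 1.93-fold lower (1.50 to 2.51) on NL-SFMA. Its model has 1110 bases, and with the length trend removed its difference was -0.03. Dhcr7, which carries out a last reduction to cholesterol, was at 59.4, 67.2, 63.4 and 44.2 FPKM. Its log2 difference of NL-SFMA was -0.59 against N-SFMA and -0.51 against L-SFMA. The first was no longer past 1.5-fold under TMM (-0.56) or median-of-ratios scaling (-0.53).

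The lanosterol demethylase gene Cyp51 was at 112, 111, 99.1 and 123 FPKM, and the methyl sterol oxidase gene Msmo1 was at 138, 128, 111 and 131 FPKM. Both were lowest on L-SFMA. The sterol reductase gene Tm7sf2 was at 29.8, 26.7, 23.1 and 20.3 FPKM, with NL-SFMA 1.47-fold lower (1.30 to 1.66) than SFMA. Its NL-SFMA difference turned from -0.53 to 0.19 on removal of the length trend. Nsdhl, which with Hsd17b7 removes methyl groups from the sterol ring, was at 22.9, 27.8, 20.1 and 24.9 FPKM. Hsd17b7 was low throughout, at 4.80, 3.68, 3.61 and 3.88 FPKM from 96 to 147 reads, and its interval on NL-SFMA (0.619 to 1.05) included a ratio of 1. The desaturase gene Sc5d was at 43.9, 43.2, 43.0 and 47.5 FPKM, with folds of 0.984, 0.980 and 1.08. Sc5d (0.76) and Msmo1 (0.60) were past 1.5-fold higher on NL-SFMA with the length trend removed. Between the single modifications, all 8 genes were lower on L-SFMA than on N-SFMA, with a median log2 difference of -0.18 and 0 past 1.5-fold. Of all 12394 tested genes, 4608 were lower on L-SFMA, and their median was 0.08 over the whole table. With the length trend removed the median of the 8 was -0.20, and again 0 of them were above 0, where 6172 of all tested genes were.

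The SREBP system itself stayed within 1.5-fold of SFMA in each comparison before the length trend was removed. Srebf2, the gene of SREBP2, was at 68.9, 82.7, 97.5 and 79.2 FPKM. It was highest on L-SFMA, at 1.42-fold (1.37 to 1.46). Srebf1, the gene of SREBP1, was far lower, at 4.25, 4.19, 5.56 and 3.10 FPKM from 331, 287, 403 and 195 reads, again highest on L-SFMA. Its log2 difference of NL-SFMA against L-SFMA was -0.68, past 1.5-fold, as in 20.9% of all tested genes, and was no longer past it under TMM (-0.57) or median-of-ratios scaling (-0.54). The ratio of Srebf2 to Srebf1 FPKM was 16.2, 19.7, 17.5 and 25.5. With the length trend removed, the difference of Srebf2 from SFMA was 0.06, 0.14 and -0.19, so its direction turned on NL-SFMA. That of Srebf1 was -0.16, 0.06 and -0.57.

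Scap, the escort of SREBPs, was at 37.2, 32.8, 38.4 and 34.6 FPKM. Insig1, which retains that complex and is itself an SREBP target, was at 67.7, 68.6, 61.4 and 67.2 FPKM. The intervals of Insig1 on N-SFMA (0.962 to 1.07) and NL-SFMA (0.941 to 1.05) included a ratio of 1. Insig2, its relative, was at 6.65, 8.44, 6.48 and 7.85 FPKM from 118 to 145 reads, and its intervals in all 3 comparisons with SFMA included 1. After trend removal, Insig2, whose model has 1114 bases, was at 0.65, 0.33 and 1.03. The sterol carrier gene Stard4 was at 9.88, 8.40, 10.6 and 12.1 FPKM, lowest on N-SFMA and highest on NL-SFMA, where its fold was 1.23 (1.08 to 1.40).

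Between modified hydrogels, NL-SFMA differed from N-SFMA past 1.5-fold in 2 genes that were higher (Acaca and Elovl6) and 6 that were lower (Mvk, Pmvk, Mvd, Fdps, Ebp and Dhcr7), where 12.5% of all tested genes were higher and 18% lower. Against L-SFMA, NL-SFMA was higher in 3 genes (Idi1, Acaca and Elovl6) and lower in 3 (Mvk, Pmvk and Srebf1), where 7.23% of all tested genes were higher and 20.9% lower. L-SFMA and N-SFMA differed past 1.5-fold in 0 of the 29 genes in either direction, where 3% of all tested genes were higher and 1.09% lower on L-SFMA. The median of the 29 genes was -0.06, 0.06 and -0.13 in these comparisons, and that of all tested genes was -0.06, -0.13 and 0.08. The log2 difference of NL-SFMA from N-SFMA and from L-SFMA was -1.74 and -1.75 for Pmvk, and 0.96 and 0.65 for Elovl6. After removal of the length trend, Acaca was no longer past 1.5-fold against N-SFMA (0.21) or L-SFMA (0.45), nor were Ebp and Dhcr7 against N-SFMA or Mvk against L-SFMA. Stard4 (0.63) was then higher and Fdft1 (-0.82) lower than on N-SFMA, Insig2 (0.70) and Msmo1 (0.66) were higher and Fdps (-0.60) lower than on L-SFMA, and Fdft1 (-0.61) was lower on L-SFMA than on N-SFMA.

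If the letters are read as separate modifications that mean the same in both names, the NL-SFMA difference can be set beside the sum of the N-SFMA and L-SFMA differences. Of the 29 genes, 7 were at least 1.5-fold below that sum (Mvk, Pmvk, Dhcr7, Srebf1, Fasn, Acly and Scd2) and 0 were above it, where 18.7% of all tested genes were below and 8.86% above. Pmvk lay farthest below, at -2.04 where the sum was -0.60. The fatty acid genes Fasn (1.13 against a sum of 1.94), Scd2 (0.84 against 1.63) and Acly (0.21 against 1.04) were below the sum although they were above SFMA. Elovl6 (1.36 against 1.11) and Acaca (1.74 against 2.09) lay within 1.5-fold of the sum. With the length trend removed, 4 of the 29 genes were below (Pmvk, Fasn, Acly and Scd2) and 1 above (Idi1). Of all 12394 tested genes, 1577 were then below and 1581 above.

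**Figure D5:**
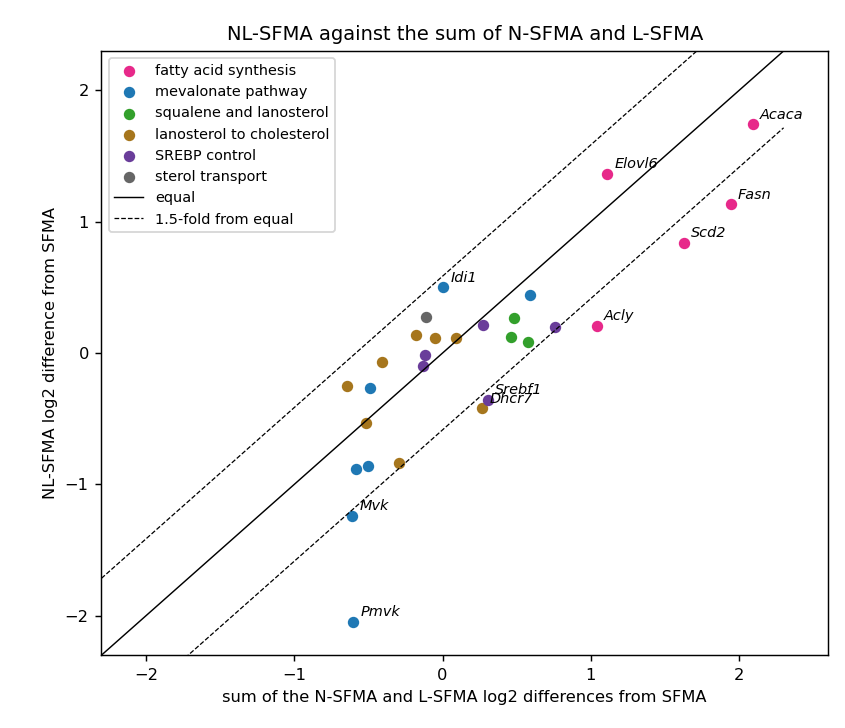
The NL-SFMA log2 difference from SFMA (vertical axis, FPKM + 1) against the sum of the N-SFMA and L-SFMA log2 differences (horizontal axis), 1 point per gene coloured by role, with a solid line where both are equal and dashed lines 1.5-fold from it. Pmvk lies lowest, at -2.04 against -0.60, and Fasn, Scd2 and Acly lie below the lower dashed line on the right.

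Other genes of the pathway were counted from a further list of 47, of which 44 were found and 36 tested. On N-SFMA, Scd was 2-fold higher and Hacd2, a dehydratase of fatty acid elongation, 2-fold lower, where 0.855% of all tested genes were higher and 2.65% lower. On L-SFMA, Faxdc2 was 2-fold higher and Hacd2 2-fold lower, where 3.32% were higher and 3.04% lower. On NL-SFMA, 4 genes were 2-fold higher (Faxdc2, Scd, Acsl4 and Elovl4) and 3 were 2-fold lower (Acss1, Mid1ip1 and Slc25a1), where 10.1% were higher and 15.1% lower. At the 1.5-fold used elsewhere, 3, 3 and 6 of the 36 were higher and 4, 2 and 8 lower. Of all tested genes, 7.24%, 14.8% and 21.6% were higher and 10.7%, 11.1% and 29.3% lower. The median of the 36 was 0.08, 0.01 and 0.09. Faxdc2, Acss1 and Hacd2 were named after their values were seen.

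Elovl4, which makes very long chain fatty acids, was at 25.2, 30.1, 32.2 and 55.3 FPKM and 2.19-fold higher (2.02 to 2.38) on NL-SFMA. Acsl4, an acyl-CoA synthetase that prefers arachidonate, was at 4.15, 5.64, 6.21 and 10.4 FPKM, and its NL-SFMA difference of 1.15 was 0.36 with the length trend removed. The pattern of both was that of Elovl6, with the highest level on NL-SFMA and the lowest on SFMA. Mid1ip1, an activator of acetyl-CoA carboxylase, was at 19.7, 12.7, 13.0 and 7.08 FPKM and 2.79-fold lower (2.45 to 3.18) on NL-SFMA. Slc25a1, the mitochondrial citrate carrier that feeds Acly, was at 66.6, 57.9, 59.6 and 32.4 FPKM and 2.06-fold lower (1.90 to 2.23) on NL-SFMA, or -0.39 on the log2 scale with the length trend removed. Both were thus highest on SFMA, opposite to Acaca and Acly.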

How the data were processed

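Per the file headers, each library has a deposited raw read count and a deposited FPKM value per gene. Dividing count by FPKM and library total gave gene model lengths that were whole numbers to within 1e-06 bases. Per the submitters' processing notes, HISAT2 (no version) and HTSeq 0.13.5 were used, with the builds mRatBN7.2 and GRCh38 named without a role. No source used here gives the strand setting, so overlapping genes (Acaca with C10h17orf78, Idi1 with Wdr37, Srebf1 with Rai1) may share reads.

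The members and lists were chosen with earlier results of these data known. A gene was tested where any library reached 1 FPKM. Differences are log2((FPKM + 1)/(FPKM + 1)). Folds of single genes are ratios of counts per library total with exact (Clopper-Pearson) 95% intervals, and summed counts have exact Poisson 95% intervals. The length trend is the median difference in 41 quantile bins of log2 length, joined linearly. It uses the gene model length, which may differ from that of the transcripts present. All 29 members were named; of the other pathway and sterol export lists, the 5 with the largest NL-SFMA difference at 5 FPKM or more. Alternatives were a pseudocount of 0.1, TMM (edgeR 4.0.16), median-of-ratios scaling, totals without mitochondrially encoded genes, removal of the length trend and no FPKM filter. Calculations used Python 3.11.15, numpy 2.4.6, pandas 2.3.3 and scipy 1.17.1, and were tested on simulated counts.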

Additional observations from a re-analysis of the deposited data

How the results depend on the processing

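With 1 library per hydrogel, depth limits only the low genes, Ebp, Insig2, Hsd17b7 and Srebf1 among them, and no alternative stands in for replicate cultures. No paired analysis was possible because each hydrogel has a single library and the labels carry no replicate numbers. Counts of members past 1.5-fold against SFMA were within 1.5 times the reported ones under every alternative but the removal of the length trend on L-SFMA. That removal gave 1 higher in place of 4 and 3 lower in place of 0. Of all 12394 tested genes, 995 were then higher and 925 lower on L-SFMA. Non-additivity had 4 lower in place of 7 under the same removal. Mvk was also no longer 1.5-fold below the sum under TMM (-0.54), median-of-ratios scaling (-0.50) or totals without mitochondrially encoded genes (-0.57). Dhcr7 and Srebf1 were likewise no longer past it under median-of-ratios scaling. Idi1 was 1.5-fold above the sum under TMM (0.587) and median-of-ratios scaling (0.63). The cause of these shifts was not tested. On N-SFMA, Acly was no longer past 1.5-fold without mitochondrially encoded genes in the totals or with the length trend removed. On NL-SFMA, removal of the trend kept 2 of the 4 higher genes (Acaca and Elovl6) and 4 of the 5 lower ones (Mvk, Pmvk, Mvd and Fdps). It added Idi1, Insig2, Msmo1 and Sc5d to the higher and Acat2 and Fdft1 to the lower ones. Of all tested genes, 2420 were then higher and 2268 lower on NL-SFMA. Median-of-ratios scaling gave a median of 0.21 for NL-SFMA against SFMA, 0.21 against L-SFMA and -0.23 for L-SFMA against N-SFMA, and TMM gave 0.18 and -0.22 for the latter pair. These scalings moved the median of all tested genes in NL-SFMA against L-SFMA from -0.13 to 0.01 and -0.02. No difference past 1.5-fold changed sign under the 5 alternatives that rescale single genes.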

Other observations

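Genes of sterol export, esterification and oxysterol formation form the outflow side of the same pathway. Of 20 such genes, all were found and 17 tested. Against SFMA, past 1.5-fold, N-SFMA had 1 higher and 0 lower, L-SFMA had 2 and 0, and NL-SFMA had 1 and 4. Of all tested genes, 7.24% and 10.7%, 14.8% and 11.1%, and 21.6% and 29.3% were higher and lower in these comparisons. With the length trend removed, 0 of the 17 genes were past 1.5-fold on N-SFMA or L-SFMA, and 0 were higher and 2 lower on NL-SFMA. Of all 12394 tested genes, 708, 995 and 2420 were then higher and 842, 925 and 2268 lower. The median difference of the 17 genes, without trend removal, was -0.07, 0.25 and -0.17. Npc1 and Npc2, which together release cholesterol from the lysosome, differed in opposite directions. In the order SFMA, N-SFMA, L-SFMA, then NL-SFMA, Npc1 was at 3.08, 5.25, 6.92 and 6.40 FPKM, and 2.08-fold higher (1.79 to 2.41) on NL-SFMA than on SFMA. Npc2 was at 120, 99.1, 93.9 and 52.9 FPKM, and 2.28-fold lower (2.13 to 2.44) on NL-SFMA. Their models have 5381 and 1535 bases, and with the length trend removed the NL-SFMA differences were 0.43 and -0.48, both within 1.5-fold.

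Stard3, a late endosomal sterol transporter, was at 40.1, 34.4, 37.6 and 20.1 FPKM in the same order and 1.99-fold lower (1.81 to 2.19) on NL-SFMA. Nr1h2, the gene of the oxysterol receptor LXR beta, was at 66.9, 46.5, 54.2 and 37.3 FPKM and 1.79-fold lower (1.67 to 1.93) there. Gramd1a, which moves plasma membrane cholesterol to the endoplasmic reticulum, was at 44.5, 45.5, 58.0 and 32.2 FPKM, highest on L-SFMA like Srebf2.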
